A study of Mus musculus with 8 samples.

Results

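Lysosomes digest what a cell takes up or recycles, and the genes described here encode their digestive enzymes, the proteins of their membrane and the machinery that sorts enzymes to them. The members are the entries of the deposited expression table that carry the KEGG lysosome label, without the proton pump genes (names starting with Atp6) and without Npc1, Npc2, Lipa, Cd68, Cd63, Slc11a1 and Slc11a2. Of 25766 entries 131 carry the label, 16 were dropped by name and 115 remained. They comprise 16 cathepsins, 16 glycosidases, 20 membrane proteins, 30 sorting adaptors and receptors, and 33 other entries. The other entries are 8 sulfatase genes, 7 lipid hydrolases and activators, 6 nucleases and phosphatases, 5 other proteases and amidases, 3 predicted genes and 4 loci without a gene name.

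The study measured total RNA of 8 subcutaneous tumors by RNA-seq, 4 grown from shNT cells and 4 from shXBP1 cells. Both kinds of cell are MC38-OVA, a colon adenocarcinoma line of the mouse with the ovalbumin antigen (OVA), so all 8 tumors share OVA and differ in the hairpin. The shXBP1 hairpin targets XBP1, which drives one arm of the unfolded protein response, and shNT is the hairpin it is compared with. The hosts were female C57BL/6J mice (one label field spells the strain C57BL/5J), and the extraction text of the labels also names B16-OVA tumors, which are not among these samples. The hairpin was carried by the injected cells, and each tumor holds host cells beside them. The labels number the tumors but do not tie them to separate mice, and each p-value therefore rests on the spread among these 4 and 4 tumors.

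Most soluble lysosomal enzymes are made in the endoplasmic reticulum and tagged in the Golgi with mannose 6-phosphate, which the receptors M6pr and Igf2r recognise. Clathrin and the GGA and AP adaptors then carry the cargo toward endosomes and lysosomes, where low pH activates the enzymes. Macrophages and other phagocytes are known for abundant lysosomes, and the transcription factors TFEB, TFE3 and MITF are known to raise many lysosomal genes through a short DNA element with the core CACGTG.

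Total counts ranged from 29070605 to 36012997 per tumor. The targeted gene Xbp1 stood at 97.3, 96.0, 102.5 and 109.2 CPM (counts scaled to a library of 1000000) in shNT tumors 1 to 4 and at 77.2, 76.0, 73.7 and 56.6 CPM in shXBP1 tumors 1 to 4. The shXBP1 tumors were all below the shNT tumors. Its log2 fold change (shXBP1 minus shNT throughout) was -0.51 (SE 0.10, adjusted p = 0.00255, edgeR's quasi-likelihood test, as for every adjusted p below). Epithelial genes that a colon adenocarcinoma could express were low: of 9 listed, 3 passed the filter on low counts, Cdx2 had 0 counts in all tumors, and Epcam lay between 0 and 0.664 CPM. Leukocyte and stromal genes were mostly higher in shXBP1 tumors, with values given further on.

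Sequences near the start site of 9 members hold the palindrome TCACGTGA, the form of the CACGTG core that is flanked by T and A. They are shown as promoter letters that these members share, and the list holds every member in which the palindrome was found. Each line below gives the bases around a site, 5′ to 3′ on the gene's strand, with the palindrome in capitals. The windows come from the RefSeq promoter table of GRCm38.p6, which spans 250 bases before to 50 after each start, and base counts are from the start site.
Ctsa, chr2:164833750-164833777, plus strand: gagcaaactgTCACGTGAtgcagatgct
Ctsd, chr7:142387909-142387936, minus strand: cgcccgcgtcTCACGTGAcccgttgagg
Gla, chrX:134601216-134601243, minus strand: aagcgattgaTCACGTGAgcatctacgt
Gla, chrX:134601183-134601210, minus strand: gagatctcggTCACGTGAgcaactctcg
Cd164, chr10:41519402-41519429, plus strand: gccgggctgcTCACGTGAccggcgcgcg
Cln3, chr7:126583341-126583368, minus strand: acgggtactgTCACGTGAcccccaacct
Mcoln1, chr8:3500463-3500490, plus strand: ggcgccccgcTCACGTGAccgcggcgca
Sumf1, chr6:108185578-108185605, minus strand: gcaccacaggTCACGTGAtctccatggg
Gnptg, chr17:25240121-25240148, minus strand: cggctgtcacTCACGTGAccgtgagacc
Igf2r, chr17:12769738-12769765, minus strand: aacgaggacgTCACGTGAgcaggaggcg
Igf2r, chr17:12769697-12769724, minus strand: ccgactcaggTCACGTGAcgctccgggg
The palindrome began 13 bases before the start in Ctsa, 99 in Ctsd, 228 and 195 in Gla, 88 in Cd164, 122 in Cln3, 46 in Mcoln1, 12 in Sumf1, 22 in Gnptg, and 49 and 8 in Igf2r. A further match in Ctsa began at base 5 after the start. Gnptg has a second start, and from it the same site began at base 3 after the start. All windows except those of Igf2r overlap an annotated exon. For Ctsa, Ctsd, Cln3 and Mcoln1 the RefSeq start and the windows shown lie inside the annotated span of the gene, not upstream of it.

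These 9 genes span every class: the proteases Ctsa and Ctsd, the glycosidase Gla, the membrane proteins Cd164, Cln3 and Mcoln1, Sumf1, which activates sulfatases, and Gnptg and Igf2r of the mannose 6-phosphate route. Of 108 members with a gene symbol of known name, 87 were matched to a promoter. Both motifs read the same on either strand, and every TCACGTGA also counts as a CACGTG. TCACGTGA was found in 9 of the 87 (10.3%), against 2.07% of 10484 tested genes with a promoter and 1.12% of all 27025 genes with a promoter. The core CACGTG was found in 22 of the 87 (25.3%), against 11.4% of those tested genes and 8.09% of all genes with a promoter. By call, TCACGTGA was in 8 of the 45 members called higher (17.8%) and in 1 of the 34 that did not pass (2.94%), whereas CACGTG was in 12 of the 45 (26.7%) and 10 of the 34 (29.4%). Neither split was tested. Of the 22 matched clathrin, GGA and AP adaptor genes, 2 held CACGTG (9.09%) and 0 held TCACGTGA. Among all genes called higher, 2.17% of 1794 with a promoter held TCACGTGA, and among all genes called lower, 2.18% of 1466. A match describes the letters in this window only, and binding was not measured.

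In shXBP1 tumors the hydrolases and the lysosomal membrane proteins were mostly higher. The adaptors that form the sorting coats were called higher in 4 of 23 tested (17.4%), near the 16.9% of all genes tested. Of the 115 members 104 passed the filter on low counts and were tested, and 57 were higher, 1 was lower and 46 did not pass at an adjusted p under 0.05. Over all 14907 genes tested, 16.9% were called higher and 13.1% lower. The median log2 fold change was 0.34 over the tested members and -0.01 over all genes tested. The groups did not overlap, with shXBP1 higher, in 54 tested members and, with shXBP1 lower, in 3 (16.6% and 13.6% of all genes tested). Of the 104, 11 were called higher by at least 2-fold, against 7.63% of all genes. For calls higher at any size, the members differed more from all genes (54.8% against 16.9%). In bulk tumors more cells of a type and more RNA per cell cannot be told apart, here and in every result below.

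The 11 members below the filter were Ctse, Ctsj, Ctsm, Dnase2b, Lamp3, Psapl1, Ap1m2, Ap3b2, the predicted genes Gm49352 and Gm49369, and 1 locus without a name. Ctsj, Ctsm, Dnase2b, Gm49352 and Gm49369 had 0 counts in all 8 tumors. Ap3b2, a neuronal AP-3 subunit, had 49 counts over the shNT tumors and 4 over the shXBP1 tumors. Lamp3, a lysosomal membrane protein, had 15 and 0.

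**Figure D1:**
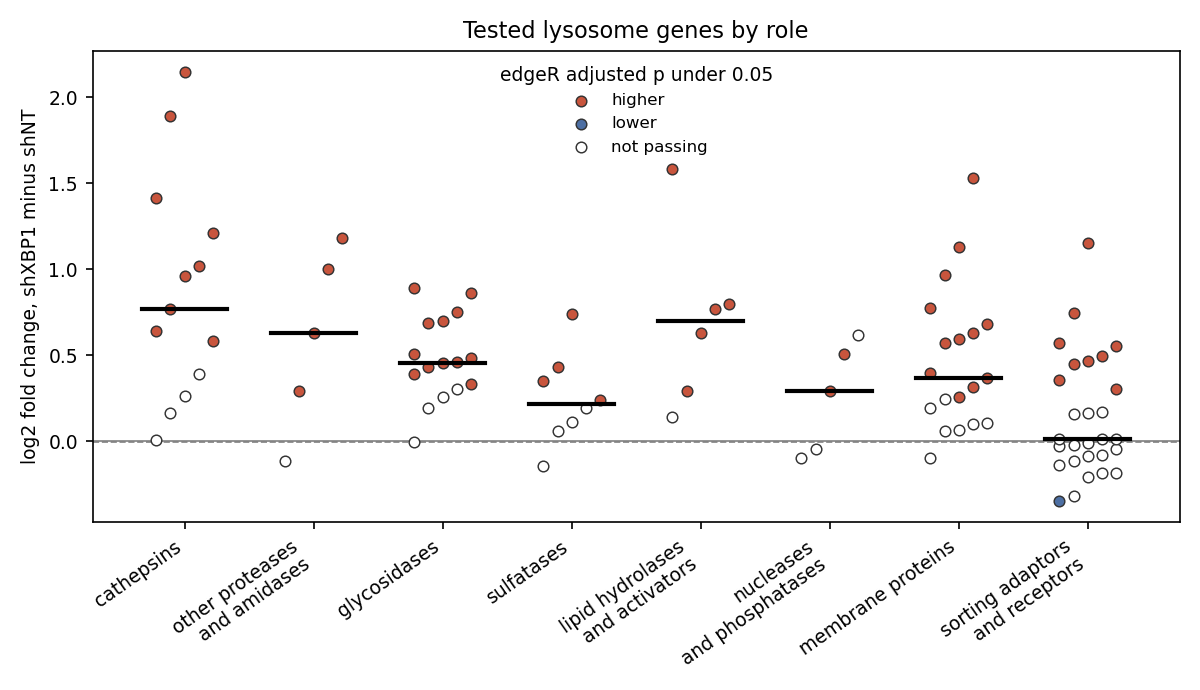
Log2 fold change (shXBP1 minus shNT, y axis) of each tested member with a role list, grouped by role on the x axis. Filled points passed an adjusted p under 0.05, thick bars are the medians of each role, and the dashed line is the median of all genes tested (-0.01). Cathepsins and lipid hydrolases have medians of 0.77 and 0.70, and the sorting genes 0.01.

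Cathepsins are the main proteases of the lysosome, and 9 of 13 tested were higher in shXBP1 tumors, 0 were lower and 4 did not pass, with a median log2 fold change of 0.77. Those that rose were Ctsw, Ctsg, Ctss, Ctsc, Ctsh, Ctsb, Ctsd, Ctsa and Ctsz. Their summed level was 2538 to 3198 CPM in the shNT tumors and 4420 to 5690 CPM in the shXBP1 tumors, 1.77-fold higher in the mean (2976 ± 297 and 5280 ± 580 CPM, SD, n = 4 each). All 9 calls were kept when any 1 of the 8 tumors was left out.

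Ctss, a cysteine protease that trims the MHC class II invariant chain in antigen-presenting cells (ENSMUSG00000038642, GRCm38 chromosome 3, 95526786 to 95556403, plus strand), stood at 326, 220.3, 308 and 319 CPM in shNT tumors 1 to 4 and at 795, 908, 909.9 and 519 CPM in shXBP1 tumors 1 to 4. The groups did not overlap, and shXBP1 tumor 4 was the lowest of its group. The change was 2.67-fold (adjusted p = 0.000409, log2 fold change 1.42, SE 0.19).

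Ctsw, a cathepsin of cytotoxic lymphocytes, had the largest change of any called member, 4.43-fold. Its levels were 4.19, 3.75, 5.86 and 5.55 CPM in shNT tumors and 23.4, 25.97, 25.5 and 10.9 CPM in shXBP1 tumors (adjusted p = 0.000318, log2 fold change 2.15, SE 0.27). Every shXBP1 tumor was above every shNT tumor. Exons of Ctsw overlap those of Fibp on the other strand, and whether counting used strand was not given in the sources used here.

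Ctsg, a serine protease stored in granules of neutrophils and mast cells, was 3.71-fold higher. It stood at 2.14, 1.04, 2.25 and 2.37 CPM in shNT tumors and at 4.33, 5.01, 8.06 and 11.5 CPM in shXBP1 tumors (adjusted p = 0.00189, log2 fold change 1.89, SE 0.34). In contrast to the other called cathepsins, its highest value was in shXBP1 tumor 4. Neutrophil markers were higher in shXBP1 tumors, 3 of 4 tested, with a summed level of 6.25 to 11.1 CPM in shNT and 24.8 to 31.3 CPM in shXBP1 tumors. S100a8, Csf3r and S100a9 rose by 2.07, 1.99 and 1.51 on the log2 scale, and Cxcr2 did not pass. The other 4 neutrophil markers were below the filter: Ngp had 0 counts in all 8 tumors, Mpo and Elane had counts in 1 shXBP1 tumor each, and Ly6g in 2. Mast cell genes were also higher, 5 of 5 tested, with a summed level of 4.44 to 9.80 CPM in shNT and 42.5 to 101 CPM in shXBP1 tumors. The part of either cell type in the result for Ctsg was not tested.

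Ctsc, which activates granzymes and other granule proteases, was 2.32-fold higher, at 324, 216, 310.4 and 281 CPM in shNT and 633, 905, 685 and 397 CPM in shXBP1 tumors. Ctsh, an aminopeptidase, was 2.03-fold higher, at 74.2, 54.8, 67.0 and 68.8 CPM against 137, 169.5, 145 and 85.8 CPM. In both the groups were apart, and shXBP1 tumor 4 was nearest to the shNT tumors.

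Ctsb and Ctsd, proteases of broad lysosomal digestion, also rose. Ctsb (chromosome 14, 63122462 to 63145923, plus strand) stood at 741, 602, 760.3 and 842 CPM in shNT and at 1574, 1438, 1526 and 1203 CPM in shXBP1 tumors, a 1.95-fold rise (adjusted p = 0.00013, log2 fold change 0.96, SE 0.12). Ctsd, an aspartic protease (chromosome 7, 142375911 to 142388038, minus strand), stood at 509, 404, 467 and 529 CPM and at 893.5, 809, 783 and 772 CPM, a 1.71-fold rise (adjusted p = 0.000169, log2 fold change 0.77, SE 0.10). Neither gene had overlapping groups. Ctsb shares exonic bases with Fdft1 on the other strand, and Ctsd with the predicted gene Gm49369 on its own strand, which had 0 counts.

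Ctsa, a carboxypeptidase that protects the enzymes Glb1 and Neu1, was 1.56-fold higher (log2 fold change 0.64, SE 0.09), and Ctsz, also a carboxypeptidase, was 1.498-fold higher (0.58, SE 0.10). Both had separate groups. Ctsl, Ctsk, Ctso and Ctsf did not pass. Ctsl, a cysteine protease of wide expression (chromosome 13, 64359337 to 64370890, minus strand), stood at 641, 605, 646 and 618.5 CPM in shNT and at 627, 701.6, 702.0 and 777 CPM in shXBP1 tumors (adjusted p = 0.168, log2 fold change 0.16, SE 0.08). Its groups overlapped, and shXBP1 tumor 4 held the highest value. Ctsk, known from osteoclasts, had a log2 fold change of 0.39 (SE 0.24, adjusted p = 0.25), Ctso one of 0.26 (SE 0.09, adjusted p = 0.0513), and Ctsf, at under 2 CPM, one of 0.00 (SE 0.40, adjusted p = 0.995).

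Levels can be compared between genes per transcript length, as the FPKM values of the deposited table. In shNT tumors Ctsd, Ctsl, Ctss and Ctsz were close. Their mean FPKM were 198 ± 18.0, 196 ± 27.8, 190.5 ± 27.2 and 179.8 ± 12.3 (SD, n = 4), and each gene's range overlapped the others'. In shXBP1 tumors the order was Ctss, Ctsd, Ctsz, Ctsb, Ctsc and Ctsl by mean FPKM, with Ctss at 507.5 ± 103 and Ctsl at 213 ± 19.9. Ctss ranked first among the cathepsins in all 4 shXBP1 tumors, and in shNT tumors 1 to 4 its rank was 3, 4, 2 and 2. Ctsl ranked 1, 3, 1 and 4 in the shNT tumors and 6, 6, 5 and 5 in the shXBP1 tumors. As a share of the summed cathepsin FPKM, Ctss took 16.1% to 18.2% in shNT and 21.5% to 27.9% in shXBP1 tumors, and Ctsl took 15.8% to 19.3% and 9.89% to 11.4%. These shares did not overlap between groups. The summed cathepsin FPKM was 1088 ± 103 in shNT and 1992 ± 209 in shXBP1 tumors (SD, n = 4 each).

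**Figure D2:**
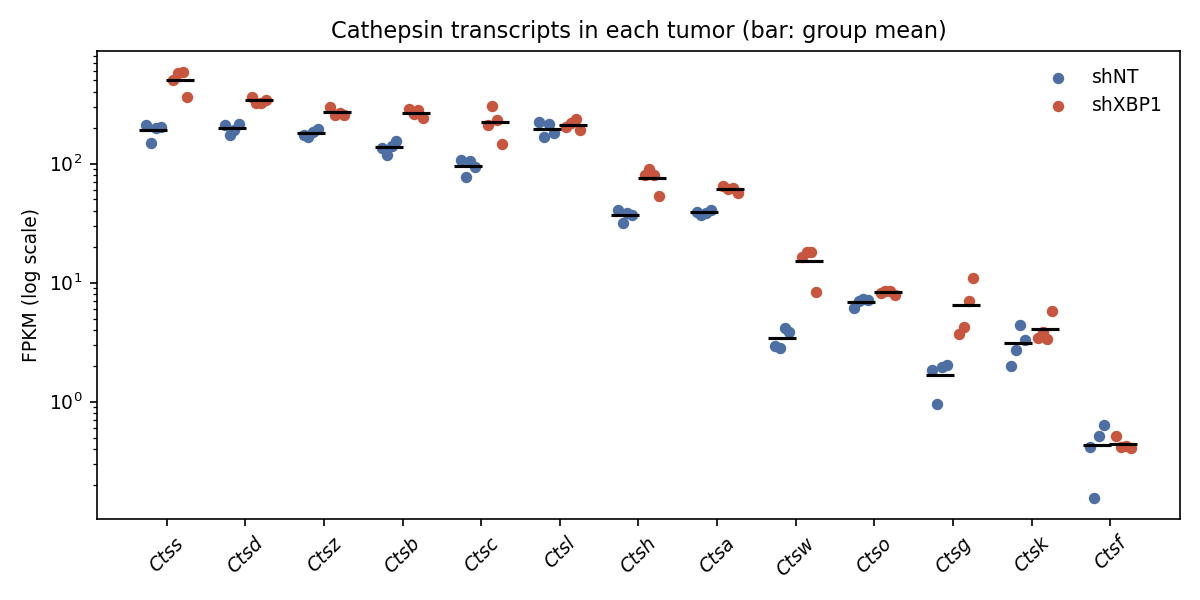
FPKM (log scale, y axis) of the 13 tested cathepsins in each of the 8 tumors, shNT in blue and shXBP1 in red. Black bars are group means. Ctss is first among the shXBP1 means (507.5 FPKM), while Ctsl has overlapping groups (means 196 and 213 FPKM).

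The other proteases and amidases included 4 that rose of 5 tested. Lgmn, the asparagine-specific endopeptidase legumain that cleaves cathepsin precursors (chromosome 12, 102394084 to 102439813, minus strand), stood at 178, 139.8, 180.4 and 194 CPM in shNT and at 332, 374, 408 and 275 CPM in shXBP1 tumors, a 2.01-fold rise (adjusted p = 0.00021, log2 fold change 1.005, SE 0.13). Napsa, an aspartic protease, was 2.27-fold higher at 3.84 to 5.23 and 7.61 to 11.1 CPM. Tpp1, a tripeptidyl peptidase, was 1.55-fold higher, at 57.8 to 68.7 and 95.4 to 98.6 CPM. All 3 had separate groups. Aga, which cleaves asparagine from glycans, was 1.22-fold higher, and its adjusted p went from 0.028 up to 0.0742 when single tumors were left out. Asah1, the acid ceramidase, did not pass (adjusted p = 0.378, log2 fold change -0.11, SE 0.09).

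Cathepsin inhibitors were listed for comparison, and 5 of 8 tested were higher, 0 lower and 3 did not pass. Cst7, cystatin F, which inhibits Ctsc and other cathepsins in immune cells, stood at 3.69, 3.44, 4.78 and 4.12 CPM in shNT and at 15.0, 14.4, 17.6 and 12.8 CPM in shXBP1 tumors (adjusted p = 1.07e-05, log2 fold change 1.90, SE 0.16). Cst3, the secreted cystatin C, rose by 0.81 (SE 0.13), and Serpina3g, a serpin that inhibits cysteine cathepsins, rose by 0.89 (SE 0.16), both on the log2 scale. Serpinb6a, the inhibitor with the highest mean CPM in shNT tumors, did not pass (adjusted p = 0.1199, log2 fold change -0.23, SE 0.10), and its means were 481 and 411 CPM in shNT and shXBP1 tumors. The summed inhibitor level overlapped between the groups, at 904 to 1159 CPM in shNT and 1123 to 1478 CPM in shXBP1 tumors.

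Glycosidases, which remove sugars from glycoproteins, glycolipids and glycosaminoglycans, were higher in 12 of 16 cases, with 0 lower and 4 not passing. All 16 were measured, and none of the called members reached a 2-fold change. Their median was 0.46, and the summed level was 596 to 661 CPM in shNT and 821 to 941 CPM in shXBP1 tumors, 1.39-fold higher in the mean.

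Gla, the alpha-galactosidase deficient in Fabry disease, stood at 22.0, 17.9, 21.4 and 21.3 CPM in shNT and at 39.0, 36.9, 32.5 and 30.7 CPM in shXBP1 tumors, a 1.685-fold rise (adjusted p = 0.000318, log2 fold change 0.75, SE 0.11). Manba, a beta-mannosidase, was 1.42-fold higher, at 22.2 to 24.9 and 30.2 to 34.97 CPM. In both genes every shXBP1 tumor was above every shNT tumor.

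Hexa encodes a subunit of the enzyme that breaks down GM2 ganglioside with the help of the activator Gm2a. Hexa was 1.61-fold higher, at 84.9, 79.2, 97.1 and 88.4 CPM in shNT and 161, 149, 135 and 119.7 CPM in shXBP1 tumors (adjusted p = 0.0004, log2 fold change 0.69, SE 0.10). The groups of Hexa did not overlap. Gm2a was also called higher, 1.74-fold (adjusted p = 0.0377), but shXBP1 tumor 4, at 63.3 CPM, lay within the shNT range of 49.5 to 75.0 CPM, and the call was lost when any 1 tumor other than shXBP1 tumor 4 was left out.

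Neu1, the lysosomal sialidase, and Glb1, the beta-galactosidase, work in a complex with Ctsa. Neu1 was 1.85-fold higher, at 13.0, 10.6, 13.1 and 18.8 CPM in shNT and 28.97, 28.2, 24.5 and 21.4 CPM in shXBP1 tumors (adjusted p = 0.0018, log2 fold change 0.89, SE 0.16). Glb1 stood at 36.7, 39.9, 44.2 and 40.7 CPM and at 43.5, 34.5, 43.2 and 39.9 CPM (adjusted p = 0.983, log2 fold change 0.00, SE 0.10). Thus 2 of the 3 partners rose, and the groups of the third, Glb1, overlapped. Glb1 shares exonic bases with Tmppe on the same strand.

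Other glycosidases that rose were Idua, Man2b1, Gusb, Galc, Gaa and Fuca1, with log2 fold changes between 0.33 (Fuca1) and 0.70 (Idua). The call of Gaa, the acid alpha-glucosidase of glycogen, did not hold in fits without shNT tumor 1, 2 or 3, or without shXBP1 tumor 1 or 4 (adjusted p up to 0.0931), and that of Fuca1 without shNT tumor 2 or shXBP1 tumor 1. Hyal1 and Naglu did not pass, with log2 fold changes of 0.30 and 0.20.

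Lipid hydrolases and their activators were higher in 5 of 6 tested, with a median of 0.70. The acid ceramidase Asah1, which did not pass, was counted with the amidases above and not in this list. Psap encodes the precursor of the saposins, which present sphingolipids to their hydrolases, and it had the highest mean FPKM of any member in both groups (311 and 532). It stood at 856, 855, 1013 and 1010.0 CPM in shNT and at 1907, 1479, 1482 and 1503 CPM in shXBP1 tumors, a 1.71-fold rise (adjusted p = 0.000314, log2 fold change 0.77, SE 0.11). The groups were separate, and shXBP1 tumor 1 stood apart above the other 3. Ppt2, a thioesterase, had the smallest adjusted p of all members, 1.90e-05, at 8.70, 7.003, 9.53 and 8.42 CPM in shNT and 31.0, 24.5, 24.8 and 20.5 CPM in shXBP1 tumors, 2.99-fold higher (log2 fold change 1.58, SE 0.14). Ppt2 shares exonic bases with the transcript Gm20460 on the same strand, so its reads could be split or joined in counting. Ppt1, the palmitoyl-protein thioesterase, was 1.55-fold higher, with separate groups (57.3 to 65.7 and 76.9 to 106 CPM). Pla2g15, a lysosomal phospholipase, was 1.23-fold higher with overlapping groups, and its call was lost in 5 of the 8 fits that left out 1 tumor. Smpd1, the acid sphingomyelinase, did not pass (0.14, SE 0.09, adjusted p = 0.291).

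Sulfatases were called higher in 4 of 8 cases, counting their activator Sumf1, with a median of 0.22. Sumf1, which converts a cysteine of every sulfatase to its catalytic residue, was 1.35-fold higher, with groups that did not overlap (46.2 to 52.1 and 57.7 to 73.0 CPM). Arsb and Ids were 1.28-fold and 1.18-fold higher, and each call was lost in some fits that left out 1 tumor (3 of 8 for Arsb and 5 of 8 for Ids). Arsa, the arylsulfatase that acts on sulfatide, did not pass and had overlapping groups (127 to 162 and 116 to 162 CPM, log2 fold change -0.15, SE 0.12, adjusted p = 0.369). Nucleases and phosphatases were higher in 2 of 5 tested. Acp2, a lysosomal acid phosphatase, rose by 0.51 (SE 0.13, adjusted p = 0.0102), although shXBP1 tumor 4 (54.2 CPM) lay within the shNT range. Dnase2a, which digests the DNA of engulfed cells, rose by 0.29 (SE 0.10, adjusted p = 0.0355), and 6 of the 8 fits that left out 1 tumor lost that call. Entpd4 and Entpd4b are near-identical copies between which reads could be split, and neither passed.

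Membrane proteins were higher in 12 of 19 tested, with 0 lower, 7 not passing and a median of 0.37. Their summed level was 2162 to 2414 CPM in shNT and 2721 to 3276 CPM in shXBP1 tumors. Laptm5, a lysosomal membrane protein of leukocytes (chromosome 4, 130913125 to 130936141, plus strand), stood at 118, 95.8, 125 and 139 CPM in shNT and at 268, 229.7, 233 and 202.5 CPM in shXBP1 tumors, a 1.955-fold rise (adjusted p = 0.00013, log2 fold change 0.97, SE 0.12). It is also one of the leukocyte markers used here. Its relative Laptm4a, of wide expression, was 1.49-fold higher, at 245 to 269 and 318 to 423 CPM, and Laptm4b was 1.315-fold higher, at 15.4 to 19.3 and 21.3 to 24.3 CPM. All 3 relatives had separate groups.

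Lamp1 and Lamp2 are the abundant glycoproteins that line the lysosomal membrane. Lamp1 (chromosome 8, 13159161 to 13175338, plus strand), stood at 639, 573, 628 and 690.2 CPM in shNT and at 822, 744, 747.5 and 712 CPM in shXBP1 tumors, a 1.196-fold rise (adjusted p = 0.0373, log2 fold change 0.26, SE 0.09). The groups were separate by a narrow margin, and the call did not hold in fits without shNT tumor 1, 2 or 3, or without shXBP1 tumor 1, 2 or 3 (adjusted p up to 0.1135). Lamp2, which also acts in chaperone-mediated autophagy, was 1.51-fold higher (325 to 401 and 436 to 697 CPM), and that call was kept in all 8 such fits. Scarb2, also known as LIMP2, did not pass (0.11, SE 0.08, adjusted p = 0.367).

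Sort1, the sorting receptor sortilin, was 2.896-fold higher from a low level, at 0.945, 0.820, 0.728 and 1.12 CPM in shNT and 2.61, 2.80, 2.86 and 2.25 CPM in shXBP1 tumors (adjusted p = 0.000849, log2 fold change 1.53, SE 0.25). Tcirg1, the a3 subunit of the proton pump of osteoclasts and macrophages, which remained among the members because of its name, was 1.71-fold higher, at 128, 151, 114 and 135 CPM against 249.8, 228, 229.8 and 196 CPM. Cln3, deficient in juvenile Batten disease, was 1.55-fold higher, at 15.7 to 17.3 and 23.7 to 28.1 CPM. In each of these genes the groups did not overlap. Abcb9, a peptide transporter, and Ctns, the cystine exporter, rose by 1.13 and 0.68 on the log2 scale. Mcoln1, the calcium channel of lysosomes, was 1.24-fold higher, a call lost without shNT tumor 2 or shXBP1 tumor 1. Hgsnat, Cd164, Scarb2, Mfsd8, Slc17a5 and Abca2 were among those that did not pass, with log2 fold changes from -0.10 (Abca2) to 0.25 (Hgsnat).

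Among the sorting genes, those of the mannose 6-phosphate route were higher, and coat genes were called higher at about the share of all genes tested. The 5 genes that tag enzymes with mannose 6-phosphate or bind the tag were all higher, with a median of 0.49, and their summed level was 313 to 359.9 CPM in shNT and 461 to 532 CPM in shXBP1 tumors. Of the 23 tested clathrin, GGA and AP adaptor genes 4 were higher (17.4%), 1 was lower and 18 did not pass. The share called higher was near the 16.9% of all genes tested, and the median of these adaptor genes was -0.02. Their summed level was 2001 to 2090.0 CPM in shNT and 1953 to 1985 CPM in shXBP1 tumors. Over all 28 tested sorting genes the median was 0.01, and it was -0.02 without shNT tumor 2 and -0.01 without shXBP1 tumor 1. Together 9 sorting genes were higher and 1 was lower. The number higher was 5 without shXBP1 tumor 1 or 3, and the number lower was 2 without shNT tumor 4 or shXBP1 tumor 1 or 3, 3 without shXBP1 tumor 2 and 4 without shXBP1 tumor 4.

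M6pr, the cation-dependent mannose 6-phosphate receptor (chromosome 6, 122308720 to 122317680, plus strand), stood at 140.2, 132, 143 and 135.5 CPM in shNT and at 238, 254, 247 and 185 CPM in shXBP1 tumors, a 1.68-fold rise (adjusted p = 0.000205, log2 fold change 0.75, SE 0.10). Igf2r, the cation-independent receptor, which also clears insulin-like growth factor II (chromosome 17, 12682406 to 12769664, minus strand), stood at 81.3, 100.4, 114 and 106 CPM and at 148, 146, 146 and 158 CPM, a 1.49-fold rise (adjusted p = 0.00109, log2 fold change 0.57, SE 0.10). In both receptors every shXBP1 tumor was above every shNT tumor, and for Igf2r shXBP1 tumor 4 was the highest of all.

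Gnptab encodes the catalytic subunits of the phosphotransferase that starts the tag, Gnptg its gamma subunit, and Nagpa the enzyme that uncovers the tag. Gnptab was 1.28-fold higher, at 63.8, 73.9, 70.5 and 65.3 CPM in shNT and 89.1, 91.8, 91.6 and 77.2 CPM in shXBP1 tumors (adjusted p = 0.00764, log2 fold change 0.35, SE 0.08). Gnptg and Nagpa were 1.41-fold and 1.36-fold higher, with separate groups. The call of Gnptg was lost without shXBP1 tumor 3 (adjusted p = 0.0532).

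Among the coat genes, the clathrin chains Cltc, Cltb and Clta and the adaptors Gga1, Gga2 and Gga3 did not pass, with log2 fold changes from -0.19 (Gga1) to 0.16 (Gga3). Clta had the highest mean FPKM of the sorting genes, 187 in shNT and 189 in shXBP1 tumors. The single member that fell was Ap3s2, a small subunit of the AP-3 adaptor (chromosome 7, 79875325 to 79920649, minus strand). It stood at 48.8, 52.0, 48.2 and 49.6 CPM in shNT and at 40.5, 35.04, 37.5 and 43.1 CPM in shXBP1 tumors, 1.27-fold lower (adjusted p = 0.00823, log2 fold change -0.35, SE 0.08). The groups did not overlap, and the call was kept in all 8 fits that left out 1 tumor. Its paralog Ap3s1 was 1.24-fold higher (adjusted p = 0.0391), with overlapping groups (80.2 to 103 and 100.3 to 131 CPM) and a call lost in 5 of those 8 fits.

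The other adaptor subunits that were called higher were Ap1s3, Ap1g2 and Ap4s1. Ap1s3 was at 0.655 to 0.728 CPM in shNT and at 2.23, 1.77, 1.675 and 0.670 CPM in shXBP1 tumors (adjusted p = 0.0329, log2 fold change 1.15, SE 0.37), so shXBP1 tumor 4 lay within the shNT range. The calls of Ap1s3 and Ap4s1 were lost when any 1 tumor other than shXBP1 tumor 4 was left out, and that of Ap1g2 without shXBP1 tumor 1. Ap1s1, the small AP-1 subunit with the highest mean FPKM, missed the threshold in the other direction, with separate groups (141 to 150.1 and 122 to 136 CPM, log2 fold change -0.18, SE 0.07, adjusted p = 0.0608).

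**Figure D3:**
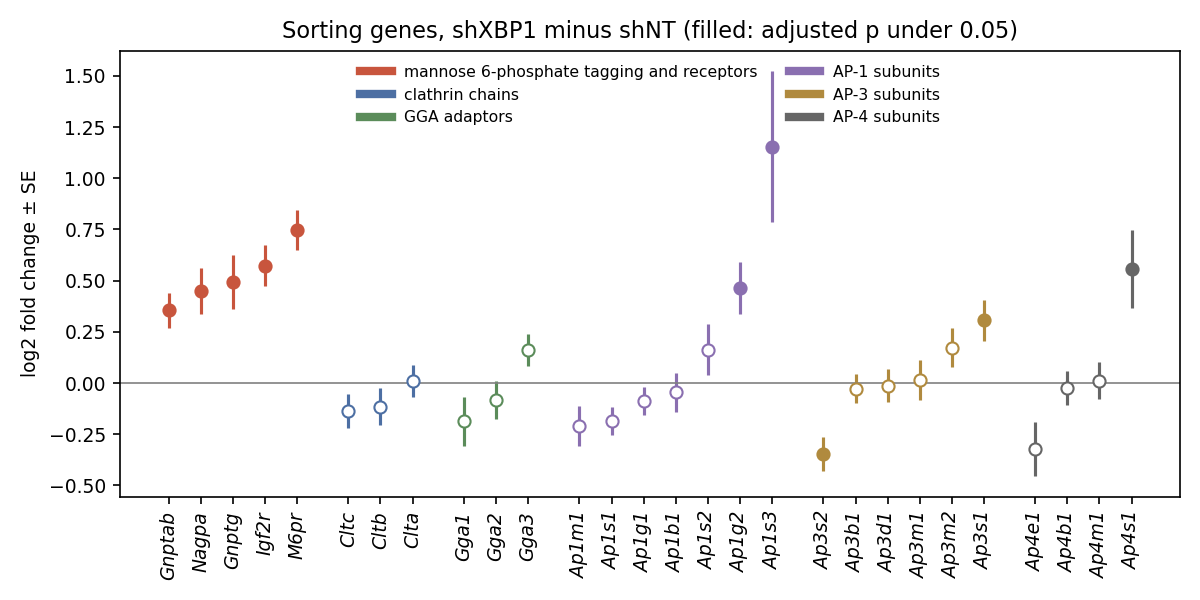
Log2 fold change with its SE (y axis) of the 28 tested sorting genes, grouped by function on the x axis. Filled points passed an adjusted p under 0.05. The 5 genes of the mannose 6-phosphate route lie between 0.35 and 0.75, and clathrin and GGA genes between -0.19 and 0.16.

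Other gene lists of the pathway were read from the same fit. Proton pump genes, which were left out of the members, were higher in 13 of 19 tested (68.4%), with 0 lower and a median of 0.39. Atp6v1d, a subunit of the pump's stalk, stood at 22.3 to 26.7 CPM in shNT and 32.5 to 48.5 CPM in shXBP1 tumors, Atp6v0b, of its membrane ring, at 68.3 to 87.5 and 114 to 138 CPM, and the accessory subunit Atp6ap1 at 139 to 156 and 196 to 206.5 CPM. These 3 had separate groups. The BLOC, HOPS and related genes tether and move lysosomes. Of 25 tested, 3 were higher (Bloc1s4, Vps18 and Bloc1s3), a share below the 16.9% of all genes tested. In this list 0 were lower, and the median was 0.05.

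Among the MiT factors that act on lysosomal genes, Tfeb stood at 6.14, 6.18, 7.94 and 9.79 CPM in shNT and at 11.3, 11.1, 9.90 and 11.1 CPM in shXBP1 tumors (adjusted p = 0.0282, log2 fold change 0.53, SE 0.16), with a narrow gap between the groups. Mitf rose by 0.99 (SE 0.19, adjusted p = 0.00194) and Tfec, the relative expressed in macrophages, by 0.73 (SE 0.18, adjusted p = 0.00844) on the log2 scale. Tfe3 stood at 68.5 to 73.1 and 63.9 to 79.5 CPM and did not pass (0.06, SE 0.08, adjusted p = 0.643). Of the whole list of these factors and their nutrient switch 5 of 19 tested were higher (26.3%, against 16.9% of all genes tested), and 0 were lower. The 5 were Tfeb, Mitf, Tfec, Flcn (0.47) and Fnip2 (0.31). All of these values are transcript levels, and the activity of the factors, which depends on their phosphorylation, was not measured.

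Marker genes of leukocytes, osteoclasts and stromal cells mostly moved in the same direction as the hydrolases. Ptprc, which encodes CD45, stood at 59.4, 42.6, 66.5 and 56.4 CPM in shNT and at 156, 193, 171 and 94.8 CPM in shXBP1 tumors. Higher were 6 of 6 leukocyte genes tested, 11 of 12 macrophage, 8 of 8 T cell and 5 of 6 natural killer cell genes. So were 5 of 7 dendritic cell, 2 of 3 B cell, 3 of 4 neutrophil and 2 of 4 osteoclast genes. Of the stromal lists, 5 of 8 fibroblast and 4 of 6 endothelial genes were higher. Among all genes tested 16.9% were called higher. A further 3 B cell, 2 osteoclast, 1 dendritic cell and 4 neutrophil markers were below the filter on low counts. The summed macrophage markers were at 785 to 1149 CPM in shNT and 1375 to 2607 CPM in shXBP1 tumors, the leukocyte markers at 480.1 to 613 and 948 to 1476 CPM, and the fibroblast markers at 1875 to 3162 and 6052 to 8152 CPM. Most of the fibroblast sum came from Col3a1 (means of 1580 and 5165 CPM) and Dcn (305 and 1041 CPM), while Col1a1 and Col1a2 did not pass, with log2 fold changes of 0.05 and -0.26. Whether these fibroblast genes were expressed by host cells or by the injected cells was not tested. The summed levels of the other lists were also separate between the groups: 32.6 to 64.0 and 90.6 to 275.5 CPM for T cells, 34.3 to 58.9 and 138 to 171.5 CPM for natural killer cells, and 23.3 to 29.9 and 30.45 to 52.5 CPM for dendritic cells. For B cells they were 2.08 to 2.90 and 4.285 to 6.69 CPM, for osteoclasts 25.4 to 35.5 and 48.8 to 58.6 CPM, and for endothelial cells 42.9 to 55.9 and 93.1 to 106 CPM. Calcr, an osteoclast gene, had 0 counts in all tumors, and Cd68 among the macrophage markers is itself one of the lysosomal genes that were dropped.

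**Figure D4:**
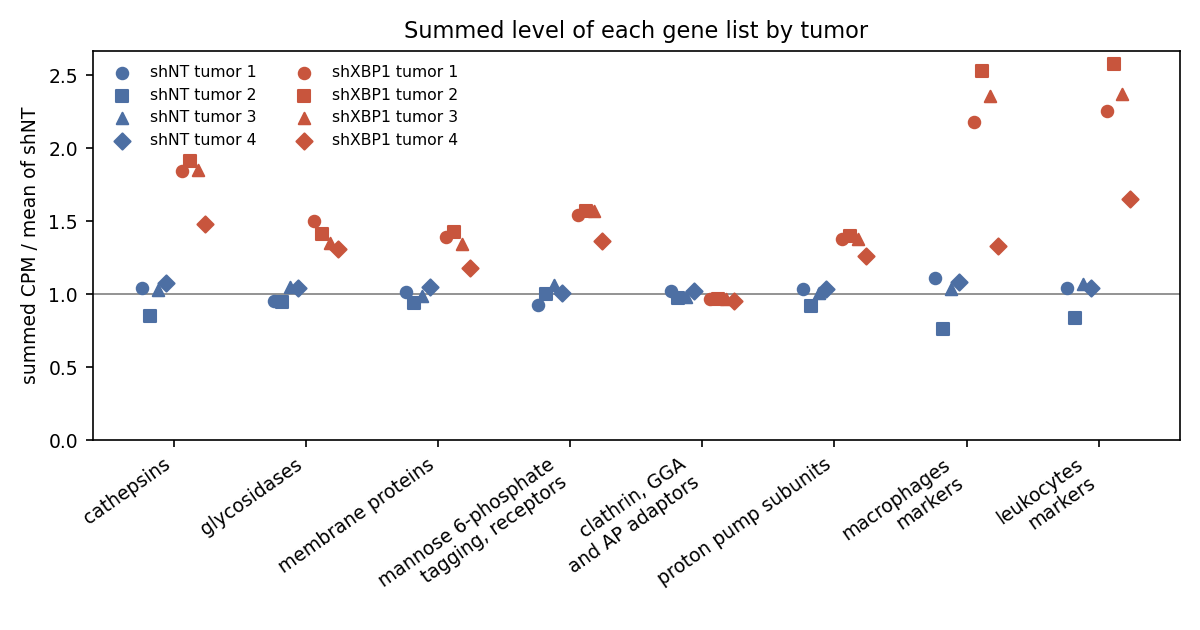
Summed CPM of 6 gene lists and 2 marker lists in each tumor (y axis), divided by the mean of the 4 shNT tumors, which is the line at 1. Each symbol is 1 tumor. Cathepsin sums of the shXBP1 tumors lie between 1.485 and 1.91, the adaptors between 0.954 and 0.969, and shXBP1 tumor 4 is the lowest of its group in each of the 8 lists.

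The plot of summed levels shows that shXBP1 tumor 4 was the lowest of its group in each of these lists, macrophage and leukocyte markers included. Outside the plot it was also the lowest for the T cell, dendritic cell, B cell and fibroblast sums. It was not the lowest for neutrophil, mast cell, osteoclast and endothelial sums, and it was the highest for natural killer cells (171.5 CPM, others 138 to 159). The macrophage sum of shXBP1 tumor 4 was 1.33 times the shNT mean, against 2.18 to 2.53 in the other shXBP1 tumors. Its cathepsin sum was 1.485 times, against 1.85 to 1.91. Of the 57 members called higher, 44 (77.2%) had their lowest shXBP1 value in that tumor, against 64.8% of all genes called higher. Without shXBP1 tumor 4 the number of members called higher was 61 and lower 4, and all genes called were 2904 and 2401.

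When the log2 CPM of Ptprc was a covariate in the same fit, edgeR called 0 of the 104 members. At an unadjusted p under 0.05, 17 were then higher and 3 lower, against 8.12% and 7.92% of all genes, and all-gene calls were 0.899% higher and 0.711% lower. The median over the members was 0.19 in that fit, with 0.25 for cathepsins, 0.32 for glycosidases, 0.21 for membrane proteins, 0.19 for the other enzymes and 0.07 for sorting genes. The SE of a member was 2.20 times as large at the median, and Ptprc itself did not overlap between the groups. Among the cathepsins, Ctsc, Ctsh, Ctso and Ctsf changed sign, to -0.30, -0.21, -0.05 and -1.03. Whether the higher hydrolase levels arose in the injected cells or in host cells cannot be told apart in these bulk samples.

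The authors' deposited table gives a log2 fold change for 57 of the 58 members called here, with the same sign in all 57. By its adjusted p under 0.01 and a change of at least 2-fold, the authors' deposited table has 8 members higher and 0 lower.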

How the data were processed

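Bulk RNA of 8 tumors was measured, and 1 deposited table holds every value, per the file headers. It gives raw counts per tumor, whole numbers without normalization as the authors deposited them. It also gives FPKM, in which the authors divided counts by length and depth, and the authors' DESeq2 log2 fold change and adjusted p. The build named in the submitters' processing notes is GRCm38. Aligner, counter and strand setting were not given in the sources used here. Coordinates are from GENCODE M21 of that build.

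The filterByExpr function kept 14907 of 25766 entries. Libraries were scaled by TMM (factors 0.980 to 1.04), and groups were compared with edgeR's quasi-likelihood test (version 4.0.16, R 4.3.3, robust, no covariate, two-sided). P-values were adjusted over every tested gene by Benjamini-Hochberg, and calls need an adjusted p under 0.05. Each SE was computed from the test, as the absolute log2 fold change divided by the square root of its F statistic. CPM are counts scaled to a library of 1000000. FPKM were used for levels between genes and in no test. Exon overlaps were looked up in GENCODE: 42 tested members share exonic bases with another gene, 7 of them on the same strand. Counts of tumors in a group differed by a chi-square of at least 16.3 per degree of freedom, so no library was taken for a repeat. The fit was tested on simulated counts.

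The members, the role, pathway and marker lists and the motifs were chosen with earlier results of these data known, and no test was made over a list. Genes were named by rule: cathepsins that passed the filter; in each other role up to 4 called members with the smallest p and 2 with the highest FPKM; up to 8 called members with the largest change in each direction; up to 3 called genes with the smallest p in each pathway list; and Xbp1, Ptprc, Tfeb, Tfe3, Mitf and Tfec. Some genes that the rule or the roles cover are not reported here. Any other gene was named with its values already seen. Alternatives were DESeq2 (1.42.0), limma voom (3.58.1), other size factors, other filters, the tumor number as a replicate block, no robust estimation, 1 surrogate variable (sva 3.50.0), Ptprc as a covariate, stricter thresholds, and leaving out each tumor.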

Additional observations from a re-analysis of the deposited data

Results flagged for a closer look

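In 9 of 126 gene and group pairs examined (63 named genes in 2 groups), 1 tumor lay far from the other 3 of its group, by Dixon's test for 4 samples. Chance gives about 1 in 20.

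In shNT tumor 2, Ctsg (1.04 CPM, others 2.14 to 2.37), Ctss (220.3 CPM, others 308 to 326) and Gla (17.9 CPM, others 21.3 to 22.0) were low. In shXBP1 tumor 4, Ctsw (10.9 CPM, others 23.4 to 25.97) and Serpina3g (174.0 CPM, others 263 to 274) were low. Psap was high in shXBP1 tumor 1 (1907 CPM, others 1479 to 1503), and Asah1 was high in shNT tumor 1 (379 CPM, others 314 to 321). Ap1s3 was low in shNT tumor 4 (0.655 CPM, others 0.725 to 0.728), and Tfeb was low in shXBP1 tumor 3 (9.90 CPM, others 11.1 to 11.3). Without shNT tumor 2 and without shXBP1 tumor 4, each left out alone, the calls of Ctsg, Ctss, Ctsw and Gla were kept.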

How the results depend on the processing

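All 9 cathepsin calls were kept when any 1 tumor was left out, as were 10 of 12 glycosidase, 10 of 12 membrane protein, 9 of 15 other enzyme and 5 of 10 sorting calls. Leaving out 1 tumor gave 44 to 61 members higher and 1 to 4 lower. By class it gave 9 to 11 cathepsins, 10 to 12 glycosidases, 10 to 14 membrane proteins, 10 to 16 other enzymes and 5 to 9 sorting genes higher, 1 to 4 sorting genes lower, and 2058 to 2904 higher and 1303 to 2401 lower over all genes. The sorting median was then between -0.019 (without shNT tumor 2) and 0.036 (without shNT tumor 1), and -0.013 without shXBP1 tumor 1. Ctsf ranged from -0.28 to 0.26 and Clta from -0.033 to 0.064.

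The same tumor number in both groups showed no pairing: deviations of same-numbered tumors correlated at -0.07, -0.14, -0.02 and -0.06. With the number as a replicate block 42 members were higher and 1 lower, among them 9 cathepsins, 9 glycosidases, 10 membrane proteins, 9 other enzymes and 5 sorting genes higher, and over all genes 2040 were higher and 1304 lower.

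At an adjusted p under 0.01, 39 members were higher (8 other enzymes, 4 sorting genes), and over all genes 1644 were higher and 879 lower. With a change of at least 1.5-fold, 30 were higher (5 glycosidases, 7 membrane proteins, 8 other enzymes, 2 sorting genes) and 0 lower, and 452 of all genes were lower. Sorting genes called lower, and so members called lower, numbered 2 with DESeq2, 2 without a low-count filter and 2 with 1 surrogate variable. With the surrogate variable Ctsf was at -0.027 and Clta at -0.0035.

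With the Ptprc covariate 0 members were called higher and 0 lower, in each of the 5 classes, and over all genes 134 were higher and 106 lower. The sign reversed for Ctsc (-0.30), Ctsf (-1.03), Ctsh (-0.21), Ctso (-0.053), Pla2g15 (-0.11), Acp2 (-0.30), Arsa (0.42), Ap1s3 (-0.45), Clta (-0.14) and Serpina3g (-0.16). The cause was not tested. The other settings, which were limma voom, both other size factors, 10 CPM in 4 libraries and no robust estimation, moved no count of members called by over 1.5 times. Genes under about 1 CPM, such as Ctsf and Ap1s3, are limited by depth.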

Other observations

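Of the 4 members without a gene name, 1 is a locus that the authors' deposited table lists as new and annotates as similar to a proton pump subunit. It stood at 11.7, 0.284, 0.451 and 0.530 CPM in shNT tumors 1 to 4 and at 0.542, 51.1, 57.4 and 2.38 CPM in shXBP1 tumors 1 to 4. It was high in shXBP1 tumors 2 and 3 and near 1 CPM or below in most others, the groups overlapped, and it did not pass (log2 fold change 3.09, SE 1.79, adjusted p = 0.252). Its value was looked up after the results were seen.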
